A study of Homo sapiens with 21 samples.

Results

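Expression of 10 genes used to mark stem-like or mesenchymal cells was followed through a TGFβ time course. They were chosen by name: the surface proteins CD44, PROCR, CD24, PROM1, NT5E, ENG, THY1 and MCAM, and the enzymes ALDH1A1 and ALDH1A3. The choice was made with earlier results of these data known. All 10 were among the 23201 gene symbols of the expression table, and 8 passed the filter on low values, a mean of at least 10 over the 21 libraries. The cells were HMLE, an immortalised human mammary epithelial line. RNA was sequenced before treatment (d0, untreated) and at days 1, 4, 7, 10, 15 and 20 of TGFβ treatment (d1, d4, d7, d10, d15 and d20), with 3 libraries per timepoint. All wells were seeded at one density, no group carried another treatment or allele, and no untreated culture was sampled at the later days. The effect of TGFβ and that of time in culture therefore cannot be told apart. The TGFβ dose was not given in the sources used here.

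TGFβ drives mammary epithelial cells into epithelial-mesenchymal transition (EMT), in which they lose junctions and gain a migratory, fibroblast-like form. In breast tissue, cells with much CD44, a hyaluronan receptor, and little CD24, a small GPI-anchored sialoglycoprotein, are classed as stem-like, and PROCR and aldehyde dehydrogenase activity serve as further markers of such cells. NT5E (CD73), ENG (CD105) and THY1 (CD90) form the surface panel by which mesenchymal stromal cells are recognised, together with the absence of blood and endothelial markers. MCAM (CD146) marks pericytes and endothelial cells as well as some stromal cells.

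Values are normalised read counts, which are reads divided by 1 size factor per library. Libraries held between 18847917 and 22667754 reads. All 9 mammary epithelial markers exceeded 3 reads in every library: KRT5, KRT14, KRT17, TP63 and ITGA6 of basal cells, KRT8 and KRT18 of luminal cells, and the general CDH1 and EPCAM. Of 9 blood and endothelial markers, PTPRC, CD34 and CDH5 stayed at or below 3 reads in every library. PECAM1, however, exceeded 3 reads in 21 libraries, CD14 in 20, both KDR and VWF in 18, CD79A in 10 and ITGAM in 9. The summed level of the list ran from 30.5 to 315, the upper end being d15. KDR, the VEGF receptor of endothelium, stood at 42.1 ± 8.63 at d0 and 263 ± 10.3 at d15 (SD, n = 3, log2 fold change 2.63, limma adjusted p = 8.78e-06), and at 13.5 ± 6.1 at d20. KDR was 157 ± 99 at d7, with libraries from 43.74 to 229, and 2.94 ± 0.95 at d10. The other tested markers of this list, CD14 and PECAM1, went the other way at d15. CD14 fell from 46.4 ± 3.19 at d0 to 16.4 ± 1.91 at d15 (−1.44, limma adjusted p = 0.00965). PECAM1 fell from 41.3 ± 2.06 to 9.06 ± 2.41 (−2.10, adjusted p = 9.66e-05). The high sum at d15 was thus mostly KDR. The part of these markers in the values of the members was not tested. Library 3 of d7 stood apart. Its root mean square log2 difference from the other d7 libraries was 0.472 and 0.457, against 0.214 to 0.243 between libraries of any other timepoint. Its spread also enters the error of comparisons between other timepoints, since 1 model holds all libraries. Calls that turn on it are given with and without it, an alternative that, for comparisons without d7, was chosen after seeing the data. The normalised totals were 18266631 to 18648067 at d0 and 20502270 to 21616067 after treatment. When every library was rescaled to the same total, the median log2 fold change over all genes moved from 0.00 to −0.20 at d20, and 2661 genes were higher and 6778 lower in place of 4341 and 4024. At the other treated days the rescaled median lay between −0.20 and −0.14.

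Most of the tested markers were more abundant after TGFβ than before it, and the largest change at d1 and at d10 was that of NT5E, with a mean 7.92-fold that of d0 at d1 and 9.20-fold at d10. CD44, PROCR, CD24, ALDH1A3, NT5E, ENG and THY1 were higher at d1, which is 7 of 8 tested members against a background of 31.3% of the 13343 genes tested (limma, adjusted p under 0.05). None was lower at d1, where the background was 28.5%. At d4 the same comparison gave 7 higher and 1 lower (MCAM), with backgrounds of 36.9% and 35.3%. At d7 it gave 6 higher and 1 lower (ALDH1A3), with 34.6% and 32.6%. At d10, 7 were higher and 1 lower (ALDH1A3), with 37.0% and 30.7%. At d15, 6 were higher and 1 lower (ALDH1A3), with 39.2% and 37.3%. At d20, 6 were higher and 1 lower (ALDH1A3), with 32.5% and 30.2%. Without d7 library 3 these counts were the same except that CD24 made 7 higher at d15 (background 41.0%). These comparisons share the 3 d0 libraries and are not independent of each other. By d0 level the tested members stood from the 50.3 to the 98.7 percentile of tested genes, so the backgrounds also hold less abundant genes.

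Fewer members also changed at least 2-fold. At d1 they were CD44, CD24 and NT5E (3 of 8, background 6.47%), and at d4 THY1 joined them (4 of 8, background 9.68%). At d7 they were CD24, NT5E and THY1 (3 of 8, background 8.79%), and at d10 CD44, NT5E, ENG and THY1 (4 of 8, background 6.94%). NT5E and THY1 alone passed at d15 (2 of 8, background 11.7%) and at d20 (2 of 8, background 7.51%). The single member at least 2-fold lower was ALDH1A3 at d15 (1 of 8, background 8.66%). The median log2 fold change of the 8 members was 0.95 at d1 and 0.74 at d20, beside 0.00 over all genes on both days. After rescaling it was 0.76 and 0.54. Fold changes here are differences of log2(value + 1).

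**Figure D1:**
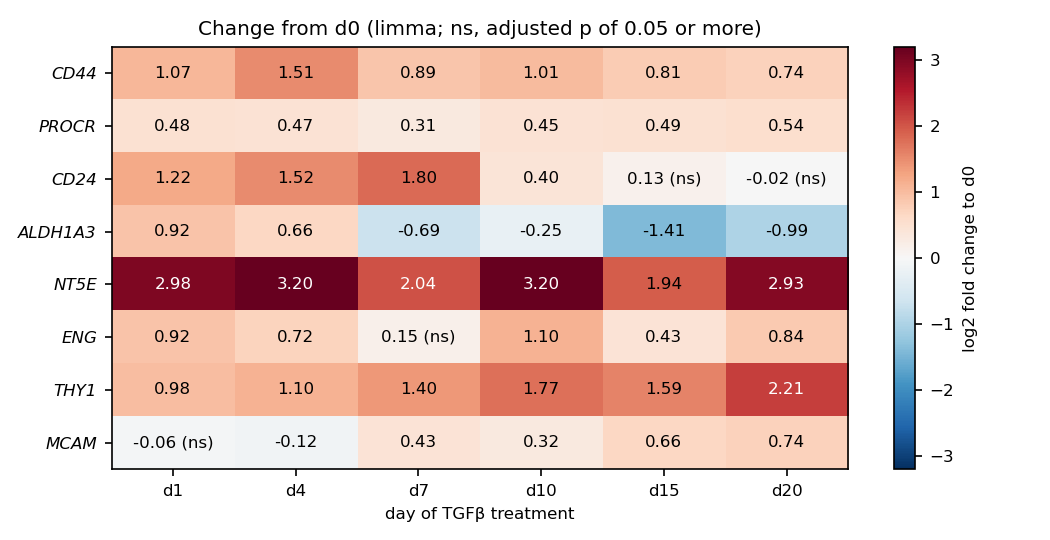
Log2 fold change of each tested member (rows) at each treated day (columns) against d0, from the limma fit on log2(value + 1). Red is higher and blue lower than d0, and ns marks an adjusted p of 0.05 or more. With all libraries NT5E is the deepest red on each day, between 1.94 and 3.20, but at d7 without library 3 CD24 (2.16) exceeds NT5E (1.78), and ALDH1A3 passes from red at d1 to blue from d7 on.

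CD44 was the most abundant member. Its normalised read count was 11754, 11373 and 11702 in the d0 libraries, 23995, 24956 and 24085 at d1, and 33157, 32719 and 33469 at d4. At d7 the 3 libraries held 21657, 21464 and 21610, so library 3, which stood apart over the transcriptome, did not stand apart in CD44. The lowest treated level was at d20, with 19097, 19329 and 19637. All 18 treated libraries lay above the d0 libraries. The log2 fold change was 1.07 (SE 0.03, limma adjusted p = 6.83e-18) at d1 and 1.51 (SE 0.03, adjusted p = 1.09e-20) at d4, and it declined to 0.74 (SE 0.03, adjusted p = 3.36e-15) at d20. The order of levels was d0, d20, d15, d7, d10, d1 and d4, and only d10 and d1 were neighbours without a difference (limma adjusted p = 0.162). The step from d15 to d20, at −0.07, passed the test with an adjusted p of 0.0412 but lost it in 5 of 6 fits that left out 1 library. The counts pool all splice forms of CD44.

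CD24 rose first and then came back. It stood at 660, 631 and 703 in the d0 libraries, at 1652, 1529 and 1467 at d1, and at 1986, 1836 and 1901 at d4. At d7 it reached 3019 and 2925 in libraries 1 and 2 but only 1410 in library 3. From d10 it was 883, 882 and 860.5, and at d20 it was 637, 637 and 700, overlapping d0. Against d0, CD24 differed by 1.22 (SE 0.17, limma adjusted p = 2.45e-06) at d1, 1.52 at d4 (adjusted p = 5.92e-08) and 1.80 at d7 (adjusted p = 6.31e-09), or 2.16 at d7 without library 3 (adjusted p = 8.04e-30). At d20 the difference was −0.02, with a 95% interval of −0.37 to 0.34 (adjusted p = 0.943). The d7 spread enters the error of every CD24 comparison. The d10 difference of 0.40 had an adjusted p of 0.0426 with all libraries and 1.14e-08 without d7 library 3, and it was 0.17 (adjusted p = 0.361) after rescaling. It also missed the threshold without the filter (adjusted p = 0.0624), with quantile normalization (0.123), in edgeR (0.0869) and DESeq2 (0.0724), and in all 6 fits that left out 1 library of d0 or d10 (0.0539 to 0.111). The d15 difference of 0.13 had an adjusted p of 0.499 with all libraries and 0.0252 without d7 library 3. Copies of CD24 without introns occur elsewhere in the genome, so its reads may be shared with them.

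The ratio of CD44 to CD24 within a library does not depend on the scaling of that library. It is a ratio of read counts that does not allow for transcript length, so only its change between days is read. Per kilobase, CD44 and CD24 held 2025 and 265 at d0 and 3377 and 262 at d20. At d0 the CD44 read count was 17.8-, 18- and 16.6-fold that of CD24, a mean log2 ratio of 4.13 ± 0.06 (SD, n = 3). The mean log2 ratio was 3.97 ± 0.10 at d1 and 4.12 ± 0.05 at d4, since both genes rose. At d7 the log2 ratios were 2.84, 2.87 and 3.94, all below d0. At d10, d15 and d20 the means were 4.74 ± 0.03, 4.80 ± 0.13 and 4.88 ± 0.06, and all 9 libraries lay above the d0 libraries. At d20 the CD44 read count was 30-, 30.4- and 28-fold that of CD24. A two-sided exact permutation test of 3 against 3 libraries gave p = 0.1 for d1, d7, d10, d15 and d20, which is the smallest p this design allows, and p = 0.8 for d4. Over the 18 treated libraries the mean ratio differed from d0 by 0.16 (exact permutation p = 0.632).

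**Figure D2:**
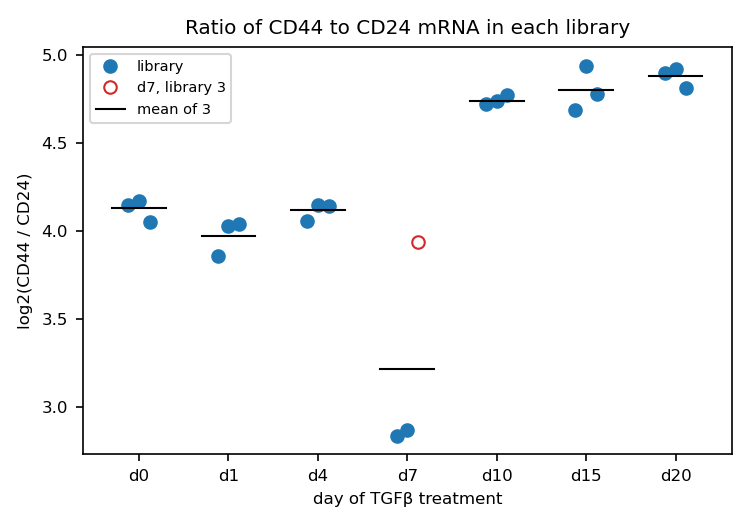
Log2 ratio of the normalised read counts of CD44 and CD24 in each of the 21 libraries by day of TGFβ treatment. Points are libraries, bars are means of 3, and the open point is d7 library 3 at 3.94. The ratio is lowest at d7 and highest at d20, where the mean is 4.88.

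PROCR, the endothelial protein C receptor, rose by less than 2-fold. It was 833, 811 and 801 at d0, 1172.5, 1148 and 1087 at d1, and 1165, 1159 and 1229 at d20. Treated libraries ranged from 981 (d7 library 3) to 1229 and did not overlap d0. Its log2 fold change was 0.48 (SE 0.04, limma adjusted p = 3.46e-09) at d1, 0.31 (adjusted p = 1.6e-06) at d7, or 0.33 without library 3, and 0.54 (SE 0.04, adjusted p = 3.99e-10) at d20. In the order d10, d4, d1, d15 and d20 no neighbours were separated (adjusted p from 0.27 to 0.927). The span of its timepoint means, 0.54, was below the median of 0.82 over all tested genes.

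Other genes of the protein C system were read beside it. Of 8, 7 were tested, and 5 were higher and 1 lower at d20 (backgrounds 32.5% and 30.2%). The median log2 fold change was 0.80 (0.60 after rescaling). F3, or tissue factor, which starts coagulation, went from 1184 ± 126 at d0 to 9784 ± 194 at d1 and 8036 ± 437 at d20 (SD, n = 3, log2 fold change 2.77, limma adjusted p = 6.76e-19). PROC, the zymogen that PROCR binds, rose from 13.4 ± 4.39 to 43.1 ± 10.4 (1.64, adjusted p = 1.6e-05). PROS1, the protein C cofactor, fell from 1299 ± 13.8 to 618 ± 53.7 (−1.07, adjusted p = 1.17e-06).

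The upstream sequence of PROCR is printed because, among tested members matched in the RefSeq promoter table, it held the most copies of CAGAC, the short element that SMAD proteins recognise, and that of MCAM because it held CAGAC and CACCTG, the E-box of the SNAI and ZEB repressors, in 1 window. The table (GRCh38.p14) matched 9 of the 10 members. THY1 had no entry. Each window is the 250 bases before the RefSeq start, on chr20:35171822-35172071 (plus strand) for PROCR and chr11:119317131-119317380 (minus strand) for MCAM, and capitals mark CAGAC or CACCTG on either strand.
PROCR: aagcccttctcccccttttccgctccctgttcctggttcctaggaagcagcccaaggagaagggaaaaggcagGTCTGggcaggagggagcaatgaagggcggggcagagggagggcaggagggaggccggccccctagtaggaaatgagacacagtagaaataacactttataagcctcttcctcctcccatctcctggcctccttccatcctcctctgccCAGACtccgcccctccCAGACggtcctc
MCAM: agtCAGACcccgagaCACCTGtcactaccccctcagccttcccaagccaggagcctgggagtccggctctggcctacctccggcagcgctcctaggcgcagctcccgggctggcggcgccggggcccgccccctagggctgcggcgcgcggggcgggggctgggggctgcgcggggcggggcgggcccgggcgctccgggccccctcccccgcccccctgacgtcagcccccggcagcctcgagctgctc
PROCR has 3 CAGAC matches, at 177, 28 and 12 bases before the start, and MCAM 1 CAGAC at 247 and 1 CACCTG at 235. CAGAC on either strand occurred in 38% of the 35116 promoters of the table, CACCTG in 17.5% and the palindromic SMAD element GTCTAGAC in 0.182%. The windows of CD44, NT5E, ENG and ALDH1A3 held none of the 3 motifs. A match of letters is a description and not a binding site.

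ALDH1A3, which makes retinoic acid from retinaldehyde and underlies aldehyde dehydrogenase activity in many breast cells, moved in opposite directions early and late. Its normalised read count was 565, 522 and 552 at d0, 1067, 1027 and 1014 at d1, and 787, 931 and 883 at d4. It dropped to 293, 328 and 399 at d7, and was 508, 461 and 417 at d10. The lowest values were 220, 216 and 180 at d15, followed by 270, 264 and 289 at d20. No treated timepoint overlapped d0. The log2 fold change was 0.92 (SE 0.10, limma adjusted p = 4.98e-08) at d1 and 0.66 (adjusted p = 3.24e-06) at d4, then −0.69 at d7 (−0.81 without library 3), −1.41 (SE 0.10, adjusted p = 1.99e-11) at d15 and −0.99 (adjusted p = 1.3e-08) at d20. At d10 the difference of −0.25 (adjusted p = 0.0296) missed the threshold when d0 library 1, d0 library 3, d10 library 2 or d10 library 3 was left out. A direct contrast of d1 with d15, its highest and lowest timepoints picked from these values, gave 2.33 (SE 0.10, adjusted p = 8.28e-15).

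ALDH1A1 and PROM1 were at or near the floor and did not pass the filter. ALDH1A1, the other enzyme behind the usual activity assay, had 2 reads in all, 1 in each of 2 d0 libraries, and 0 in each of the 18 treated libraries, where a count of 0 allows up to 3 reads per library. PROM1 (CD133), a pentaspan membrane protein, had 26 reads over the 21 libraries and at most 5 in any, in d20 library 1. No fold change is given for either. Without the filter, limma placed ALDH1A1 below d0 at each treated timepoint (adjusted p from 0.0256 to 0.0345) and PROM1 above d0 at d20 (adjusted p = 0.043), calls that rest on at most 5 reads in any library. At this depth no change of PROM1 was detectable at the other timepoints (adjusted p from 0.137 to 0.917).

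Among the 17 other aldehyde dehydrogenase genes, 14 were tested and more were lower than higher than d0. At d1, 1 was higher and 10 were lower, against 31.3% and 28.5% of all tested genes, with a median log2 fold change of −0.75. At d20 again 1 was higher and 10 lower, against 32.5% and 30.2%, with a median of −0.51 beside 0.00 over all genes. Rescaling gave 0 higher and 11 lower at d20, but it also gave 2661 higher and 6778 lower of all 13343 tested genes. ALDH3B2, a lipid droplet aldehyde dehydrogenase, fell from 201 ± 6.27 at d0 to 5.8 ± 1.38 at d20 (SD, n = 3, log2 fold change −4.92, limma adjusted p = 4.09e-10). ALDH1L1, a cytosolic folate enzyme, fell from 191 ± 11.6 to 46.4 ± 4.79 at d20 (−2.02, adjusted p = 5.35e-09), but it stood at 202 ± 3.08 at d15 (0.08, adjusted p = 0.695). ALDH3A1 and ALDH5A1 were the other 2 that were at least 2-fold lower at d20. None of the 14 tested genes was called at least 2-fold higher on any treated day. Of the untested ones, ALDH2 was 4.18 ± 1.19 at d0 and 28.4 ± 3.63 at d15. ALDH8A1 was 3.02 ± 0.512 at d0 and 16.1 ± 3.87 at d4, and ALDH1A2 had at most 4 reads in any library. At d15, when ALDH1A3 was lowest, 8 of 14 were lower, the fewest of the treated days, while 37.3% of all tested genes were lower.

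**Figure D3:**
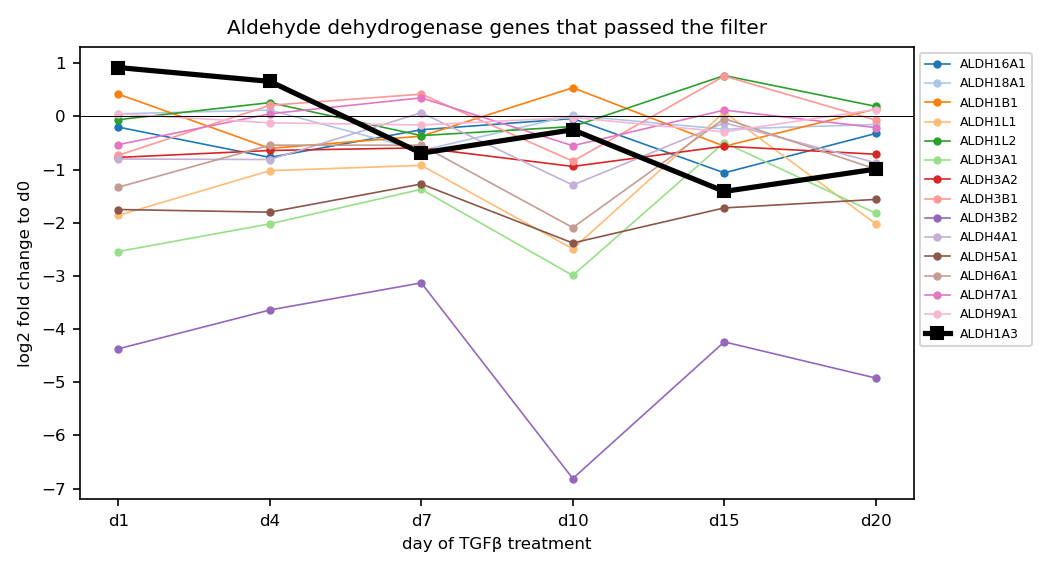
Log2 fold change to d0 of ALDH1A3 (thick black line) and the 14 other aldehyde dehydrogenase genes that passed the filter, by day of TGFβ treatment. ALDH1A3 lies at 0.92 on d1 and at −1.41 on d15. ALDH3B2 is the lowest line throughout and several genes, ALDH1L1 among them, return near 0 at d15.

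Genes that handle retinoic acid, the product of ALDH1A3, were mixed. Of 15, 9 were tested, with 2 higher and 5 lower at d20 (backgrounds 32.5% and 30.2%) and a median of −0.26. CYP26B1, which breaks retinoic acid down, rose from 30.2 ± 6.49 at d0 to 147 ± 1.17 at d1 (SD, n = 3, log2 fold change 2.26, limma adjusted p = 1.65e-09) and stood at 67.9 ± 5.97 at d20 (1.16, adjusted p = 2.15e-05). CRABP2, which carries retinoic acid to its nuclear receptors, fell from 356 ± 9.15 to 33.0 ± 1.85 at d20 (−3.39, adjusted p = 1.93e-13). DHRS3, which returns retinaldehyde to retinol, was 106 ± 5.61 at d0 and 631 ± 24.2 at d4 (2.56, adjusted p = 6.16e-11), then 25.6 ± 7.13 at d20 (−2.05, adjusted p = 3.24e-09). RARG was the other gene at least 2-fold lower at d20.

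NT5E, the ecto-enzyme that turns extracellular AMP into adenosine, rose most of the members at d1 and then swung. It was 1321, 1272 and 1326 at d0, 10379, 10477 and 10167 at d1, and 12068, 11919 and 11976 at d4. At d7 libraries 1 and 2 held 4395 and 4580, and library 3 held 7694. It returned to 12188, 11754 and 12110 at d10, dropped to 5138, 5056 and 4886 at d15 and was 9610, 10132 and 10156 at d20. All treated libraries lay far above d0, with high values at d1, d4, d10 and d20 and lower ones at d7 and d15. On the log2 scale NT5E exceeded d0 by 2.98 (SE 0.12, limma adjusted p = 4.15e-15) at d1, 3.20 (adjusted p = 9.8e-16) at d10, 1.94 (adjusted p = 2.56e-12) at d15 and 2.93 (adjusted p = 4.08e-15) at d20. The drop from d4 to d7 was −1.16 (adjusted p = 9.71e-08), or −1.42 without d7 library 3, and that from d10 to d15 was −1.26 (SE 0.12, adjusted p = 3.2e-09). In the order of levels d15 and d7 were not separated (adjusted p = 0.512), and neither were neighbours in the order d20, d1, d4 and d10 (adjusted p from 0.121 to 0.981). Without d7 library 3, d15 exceeded d7 by 0.16 (adjusted p = 3.28e-05) and d4 exceeded d1 by 0.21 (adjusted p = 2.11e-08), while d20 and d1 (adjusted p = 0.115) and d4 and d10 (adjusted p = 0.919) were still not separated.

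ENG, an accessory receptor that presents TGFβ family ligands to their signalling receptors, dipped at the same timepoints. It was 726, 739 and 686 at d0, 1326, 1307 and 1430 at d1, and 1540, 1552 and 1517 at d10. At d15 it was 933, 982 and 983, and at d20 1290, 1295 and 1261. At d7 libraries 1 and 2, at 717 and 659, overlapped d0, and library 3 stood at 1064. The log2 fold change was 0.92 (SE 0.10, limma adjusted p = 1.3e-07) at d1, 1.10 (adjusted p = 5.61e-09) at d10, 0.43 (adjusted p = 0.000745) at d15 and 0.84 (adjusted p = 3.97e-07) at d20. At d7 it was 0.15, with a 95% interval of −0.06 to 0.36 (adjusted p = 0.206). That value became −0.06 (adjusted p = 0.276) without library 3, 0.28 (adjusted p = 0.013) without library 2, and −0.04 after rescaling.

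Summed marker levels also moved between these days, though not always together with NT5E and ENG. The 9 epithelial markers, dominated by keratins, summed to 360641 to 386230 at d0, 513200 to 530093 at d15 and 226284 to 230410 at d10. At d7 they ranged from 357917 to 719147. The sum does not stand for each marker. At d15, 5 were higher and 4 lower than d0 (backgrounds 39.2% and 37.3%), with KRT17 at least 2-fold higher and EPCAM at least 2-fold lower. At d20, 2 were higher and 5 lower (backgrounds 32.5% and 30.2%). ITGA6 was at least 2-fold higher there, and CDH1, EPCAM and KRT5 at least 2-fold lower. The 6 cell division genes summed to 16065 to 16570 at d15, against 39136 to 40653 at d10 and 46549 to 48526 at d20. At d7, where NT5E and ENG were lower than at d4, these genes summed to 33293 to 43787, above the 28613 to 30162 of d4. Their part in the NT5E and ENG values was not tested. In bulk RNA, fewer cells with a transcript and less transcript per cell cannot be told apart.

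THY1, a small GPI-anchored protein of fibroblasts and stromal cells, climbed through the course. It was 1394, 1395 and 1336 at d0, 2763, 2686 and 2688 at d1, and 2971, 3006 and 2871 at d4. At d7 it was 3397, 3197 and 4395, at d10 4759, 4705 and 4636, and at d15 4215, 4088 and 4145. The highest values were 6263, 6415 and 6434 at d20. The log2 fold change was 0.98 (SE 0.07, limma adjusted p = 7.29e-11) at d1 and 2.21 (SE 0.07, adjusted p = 4.34e-17) at d20. The d7 mean was 2.66-fold that of d0, and the log2 fold change without library 3 was 1.26. The dip from d10 to d15 was −0.18 (adjusted p = 0.0218) and −0.11 (adjusted p = 0.157) after rescaling, and it missed the threshold without d10 library 1 or without d15 library 2. Only d1 and d4 were neighbours without a difference (adjusted p = 0.132), and these too were separated, by 0.12, without d7 library 3 (adjusted p = 0.000669), with only those groups in the fit (adjusted p = 0.00151) or with quantile normalization (adjusted p = 0.0183).

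MCAM, a cell adhesion molecule of the immunoglobulin family, changed late. It was 935, 925 and 957 at d0, 892, 918 and 889 at d1, and 879, 880 and 842 at d4. It was 1243, 1209 and 1362 at d7, 1151, 1166 and 1189 at d10, and 1479, 1500 and 1465 at d15. At d20 it was 1553, 1565 and 1589. The d1 and d4 libraries lay just below d0 and all later ones above it. MCAM differed from d0 by −0.12 (SE 0.04, limma adjusted p = 0.0161) at d4, 0.43 (adjusted p = 6.93e-09) at d7, or 0.38 without library 3, 0.66 (adjusted p = 3.7e-12) at d15 and 0.74 (SE 0.04, adjusted p = 9.42e-13) at d20. The d4 value missed the threshold without d0 library 3 or d4 library 3. The d1 value, −0.06 (adjusted p = 0.202), became −0.25 (adjusted p = 1.99e-05) after rescaling, and the d10 value, 0.32 (adjusted p = 7.1e-07), became 0.09 (adjusted p = 0.0664). A direct contrast of d20 with d4, its highest and lowest timepoints picked from these values, gave 0.85 (SE 0.04, adjusted p = 4.43e-13). MCAM overlaps CBL, which lies on the opposite strand and reached 2856 in 1 library, and whether reads were counted by strand was not given in the sources used here.

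**Figure D4:**
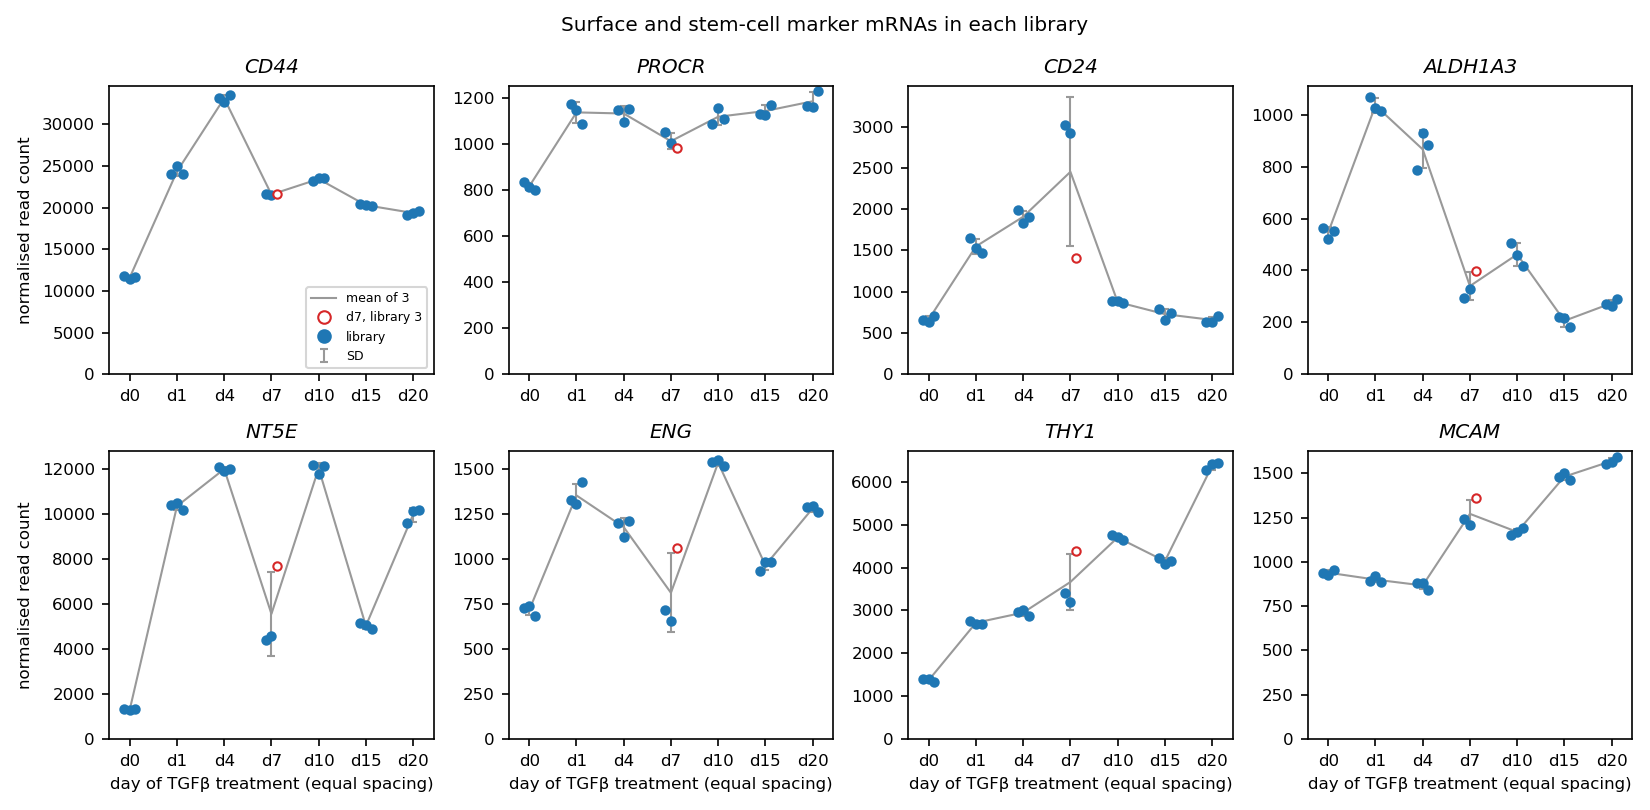
Normalised read counts of the 8 tested members in each library by timepoint, on axes that start at 0. Points are libraries, lines and bars are means and SDs of 3, and the open red point is d7 library 3. NT5E and ENG dip at d7 and d15, THY1 climbs to 6371 at d20, and CD24 returns to its d0 level.

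Between successive timepoints the members moved in different ways. From d1 to d4, CD44 was higher and ALDH1A3 lower (1 and 1 of 8, backgrounds 32.9% and 32.0%). Without d7 library 3 that step gave 4 higher (CD44, CD24, NT5E and THY1) and 2 lower (ALDH1A3 and ENG), with backgrounds of 35.9% and 34.7%. From d4 to d7, THY1 and MCAM were higher and CD44, PROCR, ALDH1A3, NT5E and ENG lower (2 and 5, background 25.5% in each direction). CD24 joined those higher without d7 library 3 (3 and 5, backgrounds 29.2% and 30.1%), by 0.64 (limma adjusted p = 3.32e-12). From d7 to d10, CD44, PROCR, ALDH1A3, NT5E, ENG and THY1 were higher and CD24 and MCAM lower (6 and 2, backgrounds 36.2% and 35.2%). The MCAM step, −0.12 (limma adjusted p = 0.0129), was −0.07 (adjusted p = 0.138) without d7 library 3, which left 6 and 1 (backgrounds 38.4% and 36.8%). From d10 to d15, MCAM was higher and CD44, ALDH1A3, NT5E, ENG and THY1 lower (1 and 5, backgrounds 39.3% and 40.5%). CD24 was lower too without d7 library 3 (1 and 6, backgrounds 40.6% and 41.6%). From d15 to d20, ALDH1A3, NT5E, ENG and THY1 were higher and CD44 lower (4 and 1, backgrounds 37.7% and 36.3%). Without d7 library 3, MCAM was also higher, by 0.08 (limma adjusted p = 0.0449), and CD24 lower, by −0.14 (adjusted p = 0.0132), which made 5 and 2 (backgrounds 39.3% and 38.2%).

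The 3 libraries of d7 differed most in CD24, where library 3 was the lowest, and in NT5E, ENG and THY1, where it was the highest. In each of these 4 genes library 3 was nearer to the d10 mean than libraries 1 and 2 were. Its transcriptome was also nearer to the d10 mean, with a root mean square log2 difference of 0.581 against 0.895 and 0.867 for libraries 1 and 2. It was nearer still to the d4 mean, at 0.427 against 0.531 and 0.522, and farther from the d15 mean, at 0.601 against 0.506 and 0.524. The contrast of d7 with d10 without library 3 gave −1.76 for CD24 and 1.42 for NT5E, against 1.16 for NT5E with it.

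**Figure D5:**
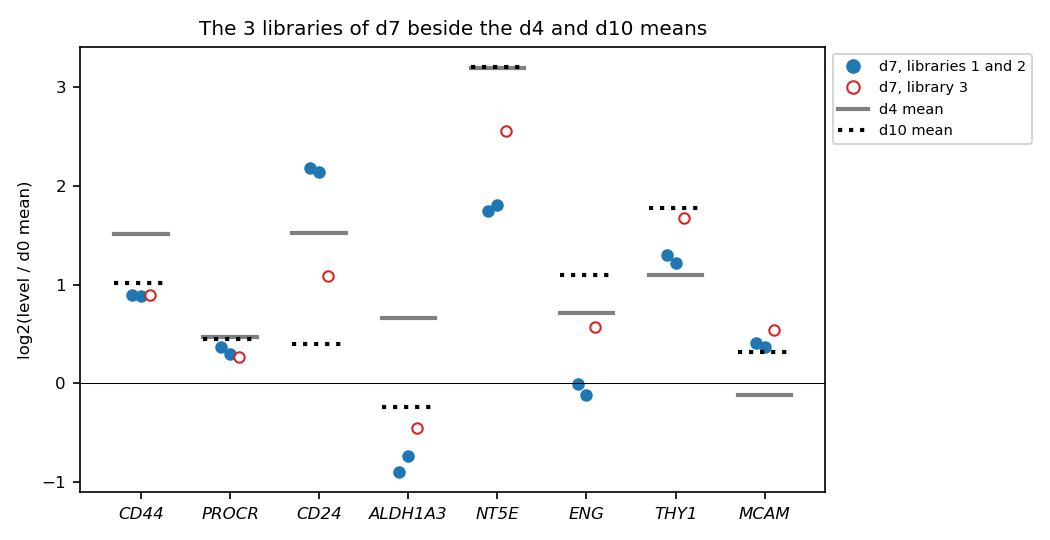
Log2 ratio of each d7 library to the d0 mean for the 8 tested members, with the d4 mean (grey bar) and the d10 mean (dotted bar). Filled points are libraries 1 and 2 and the open red point is library 3. Library 3 is apart from the others in CD24, NT5E, ENG and THY1 and among them in CD44.

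Other stromal surface proteins were read beside NT5E, ENG and THY1. Of 13, 7 were tested, and at d20 6 were higher and 1 lower (backgrounds 32.5% and 30.2%), with a median log2 fold change of 1.08. After rescaling the median was 0.88, with 5 higher, while 2661 of all 13343 genes were higher. FAP, a serine protease of activated fibroblasts, went from 24.3 ± 5.06 at d0 to 1101 ± 71.1 at d4 and 540 ± 25.4 at d20 (SD, n = 3, log2 fold change 4.44 at d20, limma adjusted p = 3.29e-19). CSPG4 (NG2), a pericyte proteoglycan, went from 196 ± 19.5 to 806 ± 53.5 at d20 (2.04, adjusted p = 7.07e-12) and was highest at d15, at 1856 ± 76.6. ALCAM, ITGB1 and PDGFRB were also at least 2-fold higher at d20, though ITGB1 (21116 ± 145) and ALCAM (3756 ± 117) were already abundant at d0. NGFR (CD271) fell from 244 ± 25.7 to 68.8 ± 5.64 (−1.81, adjusted p = 9.51e-09).

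Other mammary stem and progenitor markers were split. Of 10, 6 were tested, with 2 higher and 3 lower at d20 (backgrounds 32.5% and 30.2%) and a median of −0.56. ITGA6 (CD49f), the laminin receptor subunit of basal cells, rose from 8586 ± 178 at d0 to 19058 ± 529 at d20 (SD, n = 3, log2 fold change 1.15, limma adjusted p = 2.22e-17). ITGB3 (CD61), the other gene counted as higher, had at most 4 reads in a d0 library. It was at 2.71 ± 0.835 at d0 and 46.5 ± 8.52 at d20. ITGB3 passed the filter only through its treated values, so no p-value is given for it. EPCAM, an epithelial adhesion molecule, fell from 2106 ± 52.4 to 402 ± 14.7 (−2.39, adjusted p = 3.69e-16).

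Of the 16 genes of hyaluronan metabolism, CD44 partners and CD44 splicing, 15 matched by symbol and were tested. At d20, 7 were higher and 3 lower (backgrounds 32.5% and 30.2%). After rescaling 5 were higher and 5 lower, while 2661 of all 13343 genes were higher and 6778 lower. HAS2, a hyaluronan synthase, was at 0 reads in all 3 d0 libraries and at 37.0 ± 5.41 at d10 and 29.4 ± 4.38 at d20 (SD, n = 3). It is among the 7 counted as higher but passed the filter only through its treated values. SPP1, or osteopontin, a CD44 ligand, was 15.3 ± 2.27 at d0, 4.5 ± 2.19 at d15 and 77.3 ± 4.61 at d20 (log2 fold change 2.27 at d20, limma adjusted p = 4.19e-05). MMP14, a membrane protease that cleaves CD44, and MSN, which links CD44 to actin, were at least 2-fold higher at d20 too. ESRP1, which keeps CD44 in its epithelial splice form, fell from 4008 ± 117 to 1971 ± 60.4 at d20 (−1.02, adjusted p = 4.18e-14) but was 4792 ± 257 at d4 (0.26, adjusted p = 5.53e-05). ESRP2, the other splicing regulator of the list, was already lower at d4. It fell from 1927 ± 51.6 at d0 to 788 ± 46.8 at d4 (−1.29, limma adjusted p = 3.38e-12) and was 990 ± 101 at d20 (−0.97, adjusted p = 5.81e-10). The splice forms of CD44 were not measured.

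Around NT5E, 9 of 12 genes of adenosine handling were tested, with 2 higher and 5 lower at d20 (backgrounds 32.5% and 30.2%). SLC29A1, a nucleoside transporter, rose from 1487 ± 66.9 to 3400 ± 69.9 at d20 (SD, n = 3, log2 fold change 1.19, limma adjusted p = 4.75e-12), and it too was lower at d7 and d15, with 2441 ± 442 and 1770 ± 25.0. SLC29A2, another such transporter, fell from 719 ± 28.9 to 215 ± 8.22 at d20 (−1.74, adjusted p = 4.19e-15). ENTPD2, an ectonucleotidase that acts on ATP, fell from 805 ± 18.9 to 172 ± 34.2 (−2.23, adjusted p = 1.64e-12).

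Of the 10 TGFβ and BMP receptors that work with ENG, 9 were tested, with 4 higher and 5 lower at d20 (backgrounds 32.5% and 30.2%). After rescaling, with 2661 of all 13343 genes higher and 6778 lower, 2 and 5 of these receptors were called. The only one to change at least 2-fold at d20 was TGFBR3, betaglycan, a co-receptor like ENG, which fell from 67.7 ± 9.81 to 20.9 ± 3.54 (SD, n = 3, log2 fold change −1.66, limma adjusted p = 5.15e-06) and stood at 65.4 ± 3.53 at d15 (−0.04, adjusted p = 0.885).

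Apart from the CD44 to CD24 ratio, levels of different members are compared per length only. The scale is the normalised read count per kilobase of the longest GENCODE transcript. On that scale d0 cells held 2025 for CD44, 605 for PROCR, 387 for THY1, 333 for NT5E, 265 for CD24, 234 for ENG, 193 for MCAM and 139 for ALDH1A3. At d20 the order was CD44 at 3377, NT5E at 2544, THY1 at 1792, PROCR at 878, ENG at 419, MCAM at 323, CD24 at 262 and ALDH1A3 at 69.9. On this scale CD44 kept the first place, and NT5E and THY1 passed PROCR. That order rests on the lengths assumed, 1348 bases for PROCR, 3918 for NT5E and 3556 for THY1. Which transcripts the cells expressed was not tested.

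Across the 21 libraries some members ran together. Pearson's r on log2(value + 1) was 0.87 between CD44 and NT5E and between PROCR and NT5E, 0.86 between NT5E and ENG, 0.76 between THY1 and MCAM and −0.92 between ALDH1A3 and MCAM. The libraries share timepoints and the d0 state, so these values describe the course and carry no test. The 3 genes most alike each member were taken from 5227 tested genes whose timepoint means spanned at least 1 on the log2 scale. They were SMURF1 (0.984), STX3 and TMC7 for CD44, ITGB3 (0.952), RHBDF2 and TMEM45A for PROCR, RIMS3 (0.940), CA12 and SFRP1 for CD24, and EMP1 (0.973), GPRC5A and SLIT2 for ALDH1A3. For NT5E they were MLPH (0.988), ITGA3 and TSPAN5, for ENG RAI14 (0.973), LOC100287314 and TBX3, for THY1 GREM1 (0.979), MSRB3 and CDH11, and for MCAM TMPRSS15 (0.947), GLIPR2 and FBN2. CDH11, a mesenchymal cadherin, had d0, d10 and d20 means of 0.613, 1760 and 2238, and THY1 had 1375, 4700 and 6371 at those timepoints.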

How the data were processed

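RNA of the 21 libraries was sequenced and, per the deposited table, each value is a signal: the reads of a gene divided by 1 size factor per library and rounded to 2 decimals by the authors. The submitters' processing notes name hg19, STAR 2.7 and Salmon 1.4. Annotation, strand setting and the normalising tool were not given in the sources used here. Whole reads were recovered for 100% of values (tolerance 0.02 reads).

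For the 13343 genes with a mean of at least 10, a limma model (version 3.58.1, R 4.3.3) with 1 mean per timepoint and a trended prior was fitted to log2(value + 1), and timepoints were compared as contrasts of these means. P-values are two-sided and adjusted by Benjamini-Hochberg within each contrast, with a threshold of 0.05. The fit was also run on simulated data with changes at d20 only, 1 dispersion for all genes and no library that stood apart. That run does not bear on d7 library 3. CD44 to CD24 ratios were compared by exact permutation tests (scipy 1.17.1). Genes at or below 3 reads were treated as at the floor, which covers counting error only. Transcript lengths came from GENCODE release 29.

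Libraries were grouped by the timepoint in their column names, which carry no replicate numbers, so library numbers are names only. The paper calls the libraries biological triplicates. Members and gene lists were chosen with earlier results of these data known. All members are named, with the 3 genes of highest correlation with each, and from each list up to 2 rises and 2 falls of at least 2-fold at d20, largest first. Alternatives were a pseudocount of 10, no filter, rescaling to equal totals, quantile normalization, only the 2 groups compared, edgeR 4.0.16 and DESeq2 1.42.0 on recovered reads, each library left out and a 2-fold minimum, and, chosen after seeing the data, d7 library 3 left out of comparisons without d7. 1 blood marker of the design is not reported here.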

Additional observations from a re-analysis of the deposited data

Results flagged for a closer look

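Both of the following were picked because a member was higher than d0 at some timepoints and lower at others, and a direct contrast of those timepoints passed the test. The timepoints contrasted are the highest and lowest of each member, picked from these same values. The contrast and the separation of libraries therefore give a size and add no independent support. ALDH1A3 was higher than d0 at d1 and d4 and lower at d7, d10, d15 and d20, and d1 exceeded d15 by 2.33 on the log2 scale (SE 0.10, limma adjusted p = 8.28e-15), with 3 of 3 d1 libraries above all d15 libraries. MCAM was lower than d0 at d4 and higher at d7, d10, d15 and d20, and d20 exceeded d4 by 0.85 (SE 0.04, limma adjusted p = 4.43e-13), with 3 of 3 d20 libraries above all d4 libraries. The lower MCAM level at d4 lost significance without d0 library 3 (−0.10, limma adjusted p = 0.0573) or without d4 library 3 (−0.09, adjusted p = 0.0742).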

How the results depend on the processing

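Of 1596 values recomputed under the alternatives, 1466 gave the same call or a similar count, 37 lost the threshold, 23 gained it, 15 changed sign and 55 were moved counts. No paired analysis was possible because no replicate number stands in the column names. The cause of the changes below was not tested, except that a 2-fold minimum, by its construction, lowers counts.

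With a 2-fold minimum, the members higher than d0 numbered 3 at d1 and d7, 4 at d4 and d10, and 2 at both d15 and d20, and those lower numbered 0 at every timepoint but d15. Against the preceding timepoint the minimum left 0 higher and 0 lower at d4 and d20, 0 higher and 2 lower at d7 and d15, and 1 in each direction at d10. Without the filter, where ALDH1A1 and PROM1 are tested too, the members lower than d0 numbered 1 at d1 and 2 at each later timepoint, and 0 were lower at d20 than at d15. Rescaling to equal totals gave 1 lower at d1 than at d0 and 2 higher at d15 than at d10, and quantile normalization gave the same counts there, 3 higher at d4 than at d1 and 0 lower at d20 than at d15. With only the 2 groups in the fit, 4 were higher and 2 lower at d4 than at d1, 1 higher at d7 than at d4, 1 lower at d10 than at d7 and 2 lower at d20 than at d15. Leaving out 1 library gave 0 to 1 lower at d4 than at d0, and at d10 than at d0, 1 to 2 lower at d10 than at d7, and, with d7 library 3 among those left out, 1 to 4 higher and 0 to 2 lower at d4 than at d1 and 0 to 2 lower at d20 than at d15. The fit without d7 library 3 for timepoints other than d7 was chosen after seeing the data.

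Sign changes were limited to small differences. PROCR at d20 against d15 was −0.02 and MCAM there −0.01 under quantile normalization. After rescaling, CD24 at d15 against d0 was −0.03 and ENG at d7 against d0 −0.04. Leaving out 1 library took PROCR at d4 against d1 to between −0.04 and 0.02, CD24 at d20 against d0 to between −0.06 and 0.03, and ENG at d7 against d0 to between −0.06 and 0.28. The CD44 to CD24 ratio at d4 against d0, −0.01 as reported, was 0.00 with a pseudocount of 10 and between −0.04 and 0.02 with 1 library left out. edgeR and DESeq2 gave the counts of members within 1.5 times those of limma in 22 of 22 comparisons, and both lost CD24 at d10 against d0 (adjusted p of 0.0869 and 0.0724). The d7 comparisons are limited by library 3, and PROM1 and ALDH1A1 by depth.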
